A study of Mus musculus with 232 samples.

Results

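Mock-transfected Dgcr8-/- mouse ESCs were described on their own, cell by cell. The 60 cells were those whose labels gave the genotype Dgcr8-/- and a mock transfection, out of 182 cells in the series, and they accounted for 83 of its 232 sequencing runs. The study transfected Dgcr8-/- ESCs with a miRNA mimic and compared single cells with mock-transfected and wild-type cells. No value of the other conditions was used here. The mock cells received Dharmafect 1 reagent without a mimic and were loaded 24 h later on 1 C1 microfluidic circuit. All came from a single Dgcr8-/- line grown in DMEM with fetal bovine serum, LIF and 2i, that is, inhibitors of MEK (PD0325901) and GSK3 (CHIR99021). The study discarded capture sites with several cells or a dead cell, and cells with few or poorly diverse reads. The 60 cells are therefore 1 sample of a single culture, and the values below describe that culture without a test.

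Dgcr8 binds primary miRNA transcripts and brings them to the RNase Drosha, so that cells without it make almost no canonical miRNAs. Embryonic stem cells keep the pluripotent state of the early epiblast through Pou5f1, Sox2 and Nanog, and LIF with 2i holds them close to a naive ground state. In mouse ESCs the miR-290 family normally limits inhibitors of the G1/S transition, and ESCs without Dgcr8 are known to proliferate more slowly and to silence the pluripotency programme poorly. Messenger RNA of a gene differs from cell to cell through bursts of transcription, the cell cycle and the state of the cell. In these libraries capture and amplification of few molecules add to that difference, and no molecular identifiers were read, so biological and technical variation cannot be told apart for a single gene.

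Cells held 514728 to 3564131 counts each, with a median of 1574732. Between 6253 and 10877 genes were counted per cell (median 7784), and 1370 genes were counted in all 60 cells. In the 23 cells sequenced in 2 runs, each first run was most like the second run of its own cell. Their Pearson's r over log2 values was at least 0.962, whereas runs of different cells reached at most 0.542. Over these 23 cells, the median gene had a Spearman's rho of 0.975 between first and second runs. Both runs read the same library, so this value covers sequencing and not capture or amplification. Between different cells r ranged from 0.223 to 0.544 over 1770 pairs, and no pair of cells looked like a repeated library.

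The label was checked against 4 pluripotency markers. Pou5f1, the POU factor at the core of the pluripotency network, had a lowest normalized count of 0, a median of 363 and a highest of 1228, and was counted in 59 cells. Nanog, a homeobox factor that stabilizes the naive state, ranged from 0 over a median of 613 to 2032, and was also counted in 59 cells. Zfp42, a zinc-finger gene known as Rex1 and typical of naive cells, ranged from 215 over 1395 to 3136. Sall4, a zinc-finger partner of Pou5f1, ranged from 189 over 1036 to 2980. Zfp42 and Sall4 were thus counted in every cell, and Pou5f1 and Nanog in all but 1. Some of these counts were very low: Pou5f1 was 9.17 in mock cell 96 and 17.4 in mock cell 74. Nanog was 5.39, 13.8 and 13.8 in mock cells 78, 96 and 18. Zfp42, Sall4 and Nanog had reads shared with other genes, so their levels are uncertain. None of the 4 was more variable than other genes of like mean, as their excess (defined below) lay between -0.52 and 0.03.

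Defining regulators of other cell types were low in most cells, each taken as a short subset of its list. Of 6 primitive endoderm genes, Gata6, Pdgfra, Sox17 and Dab2 had no count in any cell, and the summed level of the 6 was at most 174. The mesoderm and endoderm genes T and Foxa2 had no count. The 5 genes of that list summed to a median of 0, to 588 in mock cell 69 and to 537 in mock cell 96. Fgf5, Otx2 and Pou3f1 of the formative and primed epiblast summed to a median of 0 and to 273 in mock cell 60. Sox1 and Pax6 of the neuroectoderm together reached 37.1. Cdx2, a trophectoderm regulator, had no count, and Gata3 and Elf5 with it summed to at most 238, and to 124 in mock cell 96. Of 12 fibroblast genes, Col1a2, Col3a1, Thy1, Postn and Lum had no count, while the sum of 355 to 4296 came mainly from Fn1 (55.2% of it) and Vim, which ESCs express too. Broader members of these lists were higher: Sparc, a matrix gene of the primitive endoderm list, had a median of 1052 and was counted in all 60 cells, and Krt8 and Krt18 of the trophectoderm list reached 5540 and 7513 in mock cell 3. The 4 two-cell-like genes summed to a median of 0 and reached 345 in mock cell 16. Dgcr8 itself was counted in 54 cells at a median of 12.1 normalized counts. The counts are per gene, not per exon, so they cannot show whether the deleted part is absent.

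**Figure D1:**
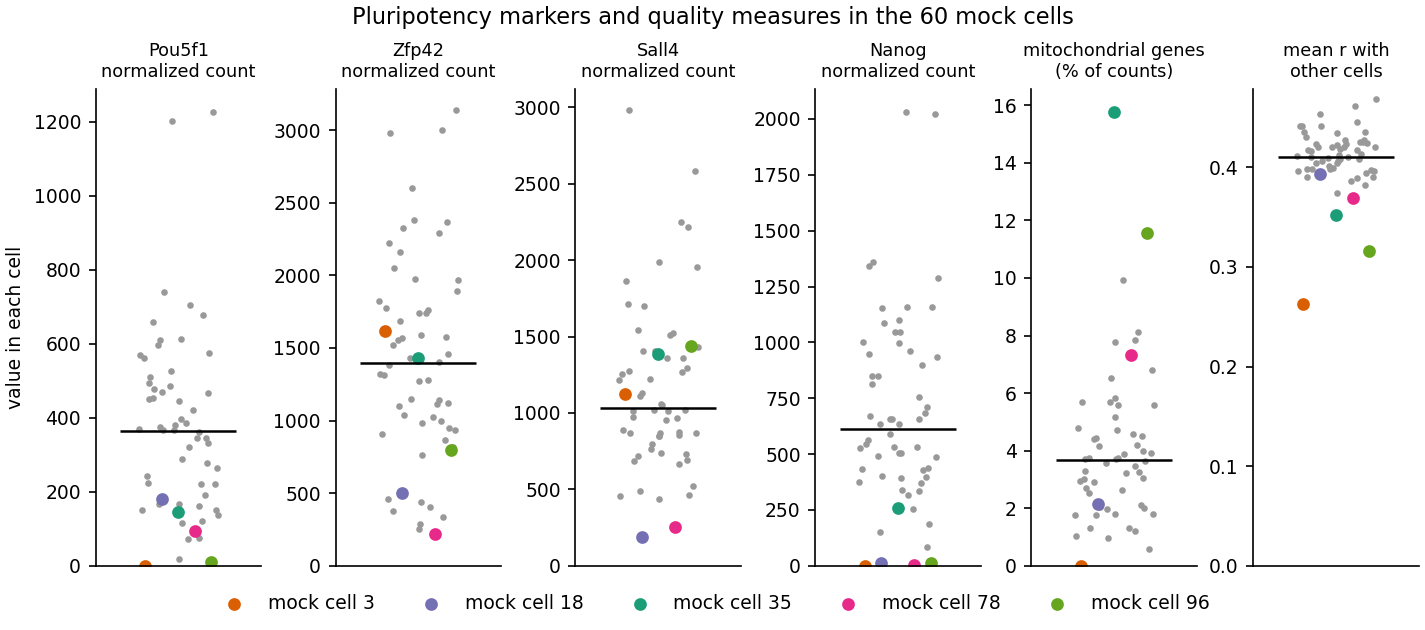
Each dot is 1 of the 60 mock cells, and black bars are medians; the panels give the normalized counts of Pou5f1, Zfp42, Sall4 and Nanog, the percent of counts from mitochondrial genes, and the mean r with the other cells. Horizontal position within a panel has no meaning. Coloured dots are 5 cells named in the text, and mock cell 3 has no Pou5f1 or Nanog and the lowest r, 0.263.

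A few cells stood apart from the rest. The mean r of a cell with the other 59 cells had a median of 0.411 and a highest value of 0.468. Mock cells 3, 96 and 35 had the lowest values, 0.263, 0.316 and 0.352. Mitochondrially encoded genes took a median of 3.68% of the counts of a cell, but 15.8% in mock cell 35, 11.6% in mock cell 96 and 0.00602% in mock cell 3. Mock cell 3 had a total of 1594550 and 7135 genes counted, both within the range of the other cells. It had no count of Pou5f1, Nanog or Sox2, yet 1617 normalized counts of Zfp42 and 1126 of Sall4. Results that rest on these cells are given with and without them.

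Mock cell 3 also held the highest level of many epithelial genes, which were picked out after their values had been seen. Krt18, a keratin of simple epithelia, was 7513 in this cell, 882 in mock cell 18 and had a median of 0. Its partner Krt8 was 5540 in mock cell 3, 1186 in mock cell 18 and 82.8 at the median. The tight junction gene Cldn4 was 3478 in mock cell 3 and at most 653 elsewhere, and Cldn3 was 1813 and at most 117 elsewhere. The epithelial transcription factor Grhl2 was 2023 there, with a median of 0 and at most 187 elsewhere. The cell cycle inhibitors Cdkn1c and Cdkn2b reached 1188 and 1016 in this cell and had medians of 0. Mock cell 3 thus held Krt8, Krt18, Cldn3 and Cldn4 without the trophectoderm gene Cdx2 and with 3.27 normalized counts of Gata3, Elf5 and Cdx2 together. Other genes went the other way: the keratin Krt17 and the mesothelial gene Msln had no count in this cell.

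Mock cells 18 and 78 were less far apart in r, 0.394 and 0.369, but low in several pluripotency genes. Nanog was 13.8 in mock cell 18 and 5.39 in mock cell 78, near the 13.8 of mock cell 96. Sall4 was 189 and 254.9, the lowest values among the 60 cells. Tdh, the threonine dehydrogenase on which mouse ESCs depend, was 8.31 and 12.6 in these cells, against 0 in mock cell 3 and a median of 997. Mock cell 18 had the highest Krt17 (4767), Msln (4623) and Sparc (6879), a keratin, a mesothelial surface protein and a matrix protein. Mock cell 78 had 3156 of Gpnmb, a lysosomal membrane glycoprotein that had a median of 0 and at most 79.7 elsewhere. These 2 cells kept mitochondrial shares of 2.13% and 7.31%.

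For each gene, the standard deviation over the 60 cells was divided by the mean to give a CV. Among 5121 genes with a mean normalized count of at least 50, the CV fell with the mean: its median was 1.38 for means of 50 to 200 (3514 genes), 0.819 for means of 200 to 1000 (1398 genes) and 0.497 above 1000 (209 genes). The excess of a gene was defined as log2 of its squared CV minus its running median along the mean, over the gene and 100 genes on each side. A gene was called variable at an excess of at least 1, a squared CV 2 times the typical one, and steady at an excess of at most -1. By this rule 540 genes (10.5%) were variable and 566 (11.1%) were steady. The line is flat at the highest means, where the same set of genes serves for all.

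**Figure D2:**
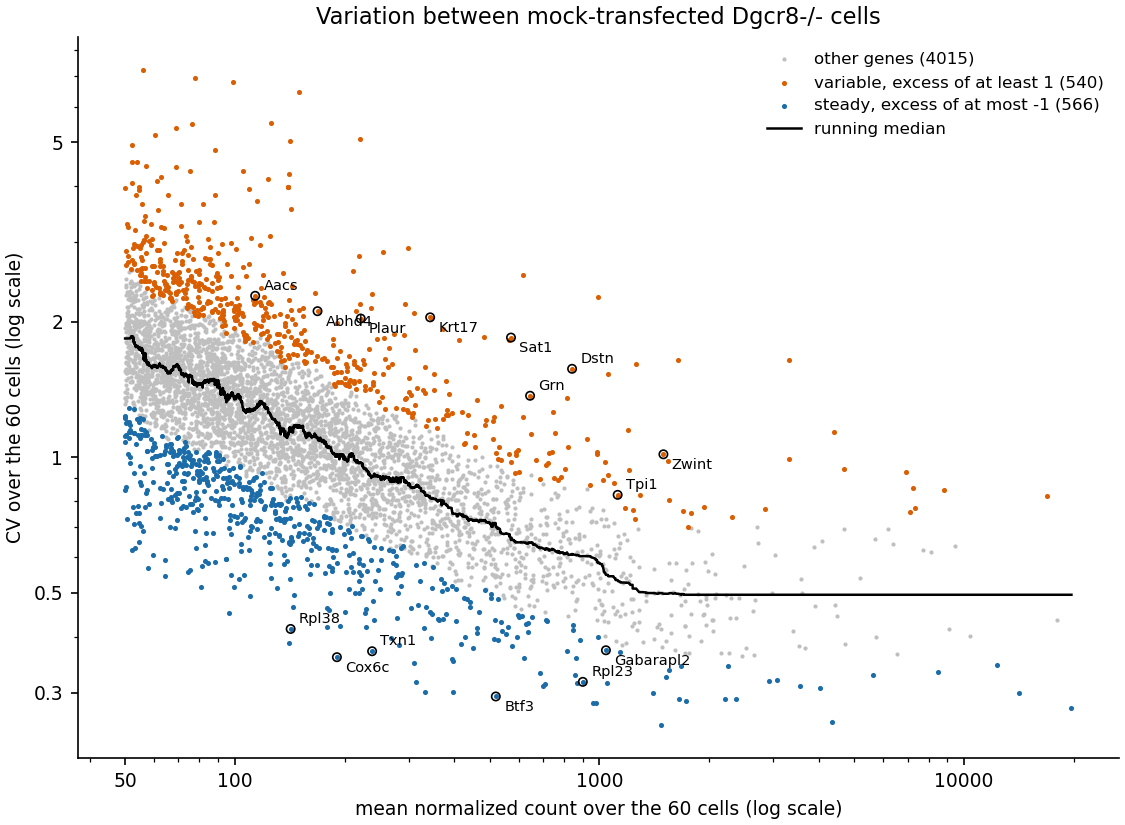
CV over the 60 cells (y axis, log scale) against mean normalized count (x axis, log scale), 1 dot for each of 5121 genes; the black line is the running median. Orange dots are the 540 variable and blue dots the 566 steady genes, and circled genes are described in the text, with Sat1, Krt17 and Plaur above the line and Cox6c, Btf3 and Txn1 below it.

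Many variable genes owed the call to 1 cell. When each cell was left out in turn, 123 of the 540 variable genes kept an excess of at least 1 in all 60 fits, and 417 lost it in at least 1 of them. In contrast, 477 of the 566 steady genes kept their call in all 60 fits. Leaving out mock cell 3 removed 133 variable calls, mock cell 96 removed 76 and mock cell 35 removed 62, against a median of 18.5 per cell. Mock cell 3 held the highest value of 163 variable genes. Without mock cells 3, 35 and 96, 383 genes were variable and 568 steady among 5013 genes, and 279 variable and 472 steady genes were shared with the calls over all cells.

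**Figure D3:**
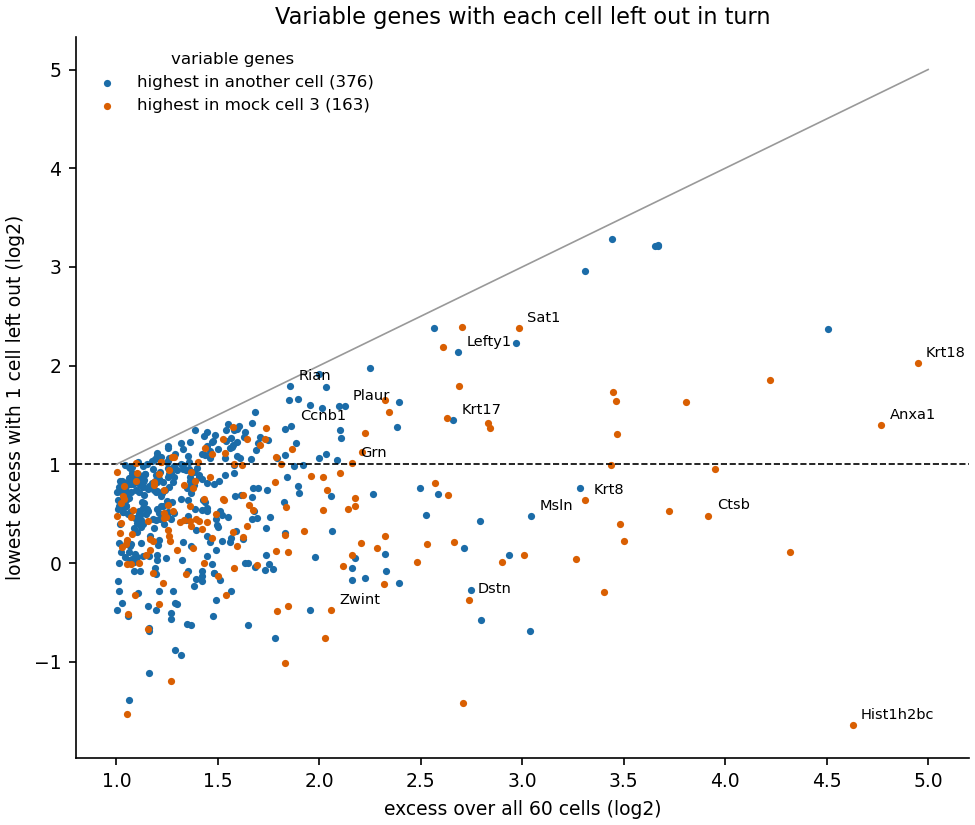
Excess over all 60 cells (x axis, log2) against the lowest excess obtained with any 1 cell left out (y axis, log2), for the 539 variable genes that had a mean of at least 5 with every cell left out; the grey line marks equal values and the dashed line the call at 1. Orange genes were highest in mock cell 3. Dstn, Zwint and Hist1h2bc drop below 0, while Sat1, Lefty1 and Rian stay above 1. Lefty1 and Hist1h2bc had reads shared with other genes.

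Of the gene lists, the cytoskeleton held most variable members by count, 41.4% of its measured genes against 10.5% of all genes. Shares were higher in some shorter lists, such as imprinted genes (50%) and mitochondrially encoded genes (46.7%). Of 29 measured genes for keratins, annexins, actin-binding proteins and tubulins, 12 were variable and 3 steady, and their median excess was 0.84. Without mock cells 3, 35 and 96 the count was 8 of 27, and 8 genes kept the call whichever single cell was left out. Krt17, a stress-inducible keratin, had a lowest level of 0, a median of 107 and a highest of 4767, followed by 2011 in mock cell 57. Its excess was 2.66 and 2.74 without the 3 cells. Anxa2, a membrane- and actin-binding annexin, ranged from 0 over 1446 to 5726 with an excess of 1.198, and the highest values lay in mock cells 57 and 60. High Anxa2 was thus spread over several cells, whereas Anxa1 was 8624 in mock cell 3, 1226 in mock cell 18 and 13.6 at the median. Anxa2 had reads shared with other genes, so its level is uncertain.

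Other actin-binding genes are given one by one. Dstn, the actin-depolymerizing factor destrin, ranged from 39.4 over 653 to 10537 in mock cell 3, and the next cell had 1616. Its excess of 2.74 became -0.37 without mock cell 3. Wdr1, a cofactor of cofilin in actin disassembly, was 5409 in mock cell 3, 1736 in mock cell 12 and 200.6 at the median, and its excess of 2.57 became 0.82. Flii, a gelsolin-family actin remodeller, had a median of 14.1 and its highest values in mock cells 77 (1740) and 3 (934), with an excess of 1.69, at least 1.15 with any 1 cell left out and 1.94 without the 3 cells. Tpm1, a tropomyosin, was highest in mock cells 35 (1514) and 3 (1142) and went from an excess of 1.66 to 0.67 without mock cells 3, 35 and 96.

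Lysosomal genes were variable in 6 of 18 measured members (33.3%, against 10.5% of all genes), with a median excess of 0.61. Of the 6, 2 kept the call whichever single cell was left out. Without mock cells 3, 35 and 96, 4 of 18 were variable. The cathepsins, proteases of the lysosome, were highest in mock cell 3: Ctsb was 17687 there and 629 at the median, Ctsd was 12179 and 344, and Ctsl was 6503 and 103. Without mock cell 3, the excess of Ctsb went from 3.92 to 0.48 and that of Ctsd from 3.95 to 0.95, while Ctsl went from 3.46 to 1.31 and kept the call. Grn, the precursor of progranulin and granulins, was 6116 in mock cell 3, 2392 in mock cell 7 and 455 at the median, and kept an excess of 1.02. Atp6v0b, a subunit of the vacuolar proton pump, had 3849 in mock cell 3, 891 in mock cell 96 and a median of 144, and its excess of 2.16 became 0.08. Npc2, a cholesterol carrier of the same list, lay at -0.21.

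Sat1, Plaur and Klf6, of moderate mean, were each highest in a pair of cells. Sat1, which acetylates spermidine and spermine for breakdown, had the highest excess among the genes of means 200 to 1000 that met the naming filters, 2.98. Its level ran from 0 over a median of 315 to 5978 in mock cell 3 and 5865 in mock cell 78, and its upper quartile was 689. Plaur, the receptor of urokinase, ranged from 0 over 77.5 to 2591 in mock cell 18 and 2216 in mock cell 7, with an excess of 2.12. Both kept the call without any single cell, at 2.38 and 1.59. Klf6, a zinc-finger factor of the early growth response, was 3034 in mock cell 3, 2012 in mock cell 96 and 110 at the median, and its excess of 2.34 became 0.71 without mock cells 3, 35 and 96.

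Among genes with a mean below 200, the leading variable genes included enzymes of metabolism and a splicing factor. Abhd4, a lipid hydrolase, ranged from 0 over 24.99 to 2242 with an excess of 1.86. Aacs, acetoacetyl-CoA synthetase of lipid synthesis, was counted in 28 cells, at a median of 0 and up to 1255 in mock cell 60 and 1040 in mock cell 33. Abhd4, Aacs and Flii kept the call whichever cell was left out. Asl, argininosuccinate lyase, and Npat, an activator of histone genes, were 2275 and 2216 in mock cell 96 and lost the call without it, at 0.47 and 0.24. The splicing factor Rbfox2, at 1826 in mock cell 3, fell to 0.59 without that cell.

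At means above 1000, 34 of 209 genes were variable, but 19 of the 209 met the naming filters, which leave out genes with shared reads. Of those 19, Zwint, Atxn10 and Tpi1 were variable. Zwint, a kinetochore protein, was 12338 in mock cell 3, 3565 in mock cell 60 and 1289 at the median, and its excess of 2.06 became -0.48 without mock cell 3. Atxn10 was 6209 in the same cell, 825 at the median, and went from 1.31 to 0.42. Tpi1, a glycolytic isomerase, was 5924 in mock cell 57, 942 at the median and 3.86 in its lowest cell, with an excess of 1.26 that became 0.52 without mock cell 57. Zfp57, which protects imprints in ESCs, ranged from 1.64 over 1192 to 3413 with an excess of 0.91, just under the call. The remaining leading genes of this range, Rps4l, Eef2, Eif3l and Tdh, lay between 0.38 and 0.63. Malat1 and Actg1, examined after the values were seen, were variable at 2.00 and 1.81, and both had reads shared with other genes.

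Imprinted genes were variable in 5 of 10 measured members, with a median excess of 1.06, and remained 5 of 10 without mock cells 3, 35 and 96. Plagl1, a growth-restricting zinc-finger factor, ranged from 0 over 23.6 to 2264 in mock cell 32, with an excess of 2.09. Rian, a maternal noncoding RNA, ranged from 0 over 345 to 2883 in mock cell 40, with an upper quartile of 981, and its excess of 1.86 stayed at 1.79 or more with any 1 cell left out. Meg3, another maternal noncoding RNA, ranged from 0 over 75.4 to 2134 in mock cell 18 and lost the call without that cell (0.48). Peg3 was highest in mock cell 78 (1287) and also lost the call without it. Impact, a regulator of translation, was 6842 in mock cell 3, 6194 in mock cell 18 and 1420 at the median, and kept an excess of at least 1.02. Read against genes of like count per kilobase, 2 of the 10 were variable, and Rian had 0.57 and Meg3 0.23, as both have long transcripts. Plagl1, Meg3 and Impact had reads shared with other genes, so their levels are uncertain.

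Meg3 and Rian belong to an imprinted cluster on chromosome 12, whose other genes were looked at after these values were seen. In GRCm38, Meg3 is at chr12:109541001-109571726, Rian at chr12:109603940-109661716, the lincRNA B830012L14Rik at chr12:109695586-109702587 and Mirg at chr12:109729764-109749460. B830012L14Rik was off in 31 cells and on in 26, and its Spearman's rho with Rian over the 60 cells was 0.74. Both genes were highest in mock cells 40 and 18: Rian had 2883 and 2812 there, and B830012L14Rik 3007 and 2971. The correlation was 0.55 between Meg3 and Rian and 0.47 between Meg3 and B830012L14Rik. Without mock cells 3, 35 and 96, these values were 0.78, 0.55 and 0.51. Of the paternally expressed genes of the cluster, Dlk1 was counted in 1 cell at 3.14 and Dio3 in 3 cells at up to 417. Rtl1, also paternally expressed, lies antisense between Meg3 and Rian. It was counted in 29 cells at up to 734, with a rho of 0.42 with Meg3. As strand was not stated, reads counted for Rtl1 may come from the opposite strand, so its level is uncertain. Mirg, which is not one of these paternally expressed genes, had a median of 0.994. B830012L14Rik had shared reads, so its level is uncertain. Rian and B830012L14Rik were themselves correlated with the number of genes counted in a cell, at 0.33 and 0.38. The part of the genes counted in these correlations was not tested.

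Cell cycle genes were variable in part. Of 12 measured G1/S genes, 4 were variable, and none of these 4 calls outlasted the removal of every single cell. Cdc6, a loader of the replicative helicase, ranged from 0 over 57.2 to 1934 with an excess of 1.36, and Ccne1, the cyclin partner of Cdk2 at the G1/S transition, from 0 over 2.61 to 1101 with 1.13. In G2/M, 3 of 9 were variable, Ccnb1, Cdc25b and Bub1, and Ccnb1 alone kept the call whichever cell was left out. Ccnb1, the cyclin of mitotic entry, ranged from 0 over 346 to 3676 in mock cell 18 with an excess of 1.86. In G2, 2 of 4 were variable, Ccnf and Top2a, and both kept the call. Top2a, which untangles chromatids, ranged from 1.64 over 469 to 3213 at an excess of 1.43. In S phase, 1 of 6 was variable, Rrm2, a subunit of ribonucleotide reductase that ranged from 0 over 505 to 2631 at 1.26. Top2a and Rrm2 had reads shared with other genes, so their levels are uncertain. Pcna, the replication clamp, was not variable (-0.47), and Cks2, a subunit of the Cdk1 complex, was steady at -1.27. Of 33 other mitotic genes 2 were variable and 1 steady, against background shares of 10.5% and 11.1%, and without mock cells 3, 35 and 96 it was 6 and 1 of 34.

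Genes of signalling and stress gave single high members. Lefty1, an inhibitor of Nodal, ranged from 0 over 34.3 to 3075 in mock cell 5 and 2776 in mock cell 10, with an upper quartile of 334 and an excess of 2.69. It kept at least 2.13 whichever cell was left out, while Nodal itself lay at -0.33. Lefty1 had reads shared with other genes, as did Mdm2 below, so their levels are uncertain. Id3, a target of BMP signalling, reached 2941 in mock cell 81 from a median of 170 (excess 1.42, and 0.54 without that cell). Of 18 p53 targets 4 were variable: Mdm2, Trp53inp1, Ccnd2 and Btg2. Mdm2, which degrades p53, was 2484 in mock cell 3, 1321 in mock cell 35 and 65.1 at the median, and went from 1.96 to 0.54 without the 3 cells. Of those 4, Btg2 kept the call with any 1 cell left out, ranging from 0 over 144 to 1956. The stress genes Ppp1r15a, Srxn1, Cryab and Hmox1 were all highest in mock cell 3, at 3317, 2854, 2497 and 1826, and lost the call without it.

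Mitochondrially encoded genes were variable in 7 of 15 cases and had a median excess of 0.96. Read against genes of like count per kilobase, 13 of the 15 were variable, with a median of 1.48. mt-Co1, a core subunit of complex IV, ranged from 44.2 in mock cell 3 over 13879 to 73470 in mock cell 35. mt-Nd1, a subunit of complex I, ranged from 11.5 over 5983 to 39084 in the same 2 cells. Without mock cells 3, 35 and 96, 2 of the 15 were variable and 3 steady. The genes moved together, with a median rho of 0.69 over their pairs and 0.64 without the 3 cells, against 0.01 over all pairs of genes. Many of them have near-identical nuclear copies, so the split of reads is uncertain.

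Nuclear genes of oxidative phosphorylation showed the opposite: 25 of 48 were steady and none was variable, with a median excess of -1.07. Cox6c, a small subunit of complex IV, ranged from 31.1 over 188 to 369, at a CV of 0.360 where 1.00 was typical, an excess of -2.96. Ndufa5 and Ndufa6 of complex I ranged from 0 over 52.7 to 144 and from 6.69 over 71.1 to 237, at -2.79 and -2.70. Atp5mpl and Atp5h of ATP synthase lay at -3.06 and -1.98. Outside this list, Tomm7, a subunit of the import pore of the outer membrane, ranged from 8.18 over 98.2 to 257 at -2.73, and 1810022K09Rik ranged from 0.956 over 45.7 to 149 at -3.15. Leaving out mock cells 3, 35 and 96 left these values between -1.95 and -3.03.

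Ribosomal proteins were steady in 40 of 77 cases and variable in none, at a median excess of -1.05. Of the 77, 10 had no reads shared with other genes, so the split of reads is uncertain for the others. Rpl38 ranged from 31.7 over 133 to 386, at -2.95. Rpl23 ranged from 311 over 908 to 1966 at -1.85, and Rps29 from 186 over 398 to 953 at -1.91. Rpl36a, at -1.94, had 1.64 in its lowest cell. Btf3, which binds nascent chains at the ribosome, ranged from 81.01 over 507 to 872, at a CV of 0.295 where 0.701 was typical and an excess of -2.50. Eef1a1, the factor that delivers aminoacyl-tRNA, ranged from 8211 over 19999 to 31537 at -1.67.

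Single redox and chaperone genes, and part of the proteasome and splicing genes, were also at the steady end. Over all genes, 10.5% were variable and 11.1% steady. Of 21 metallothionein, redox and iron genes 3 were variable and 3 steady (14.3% each), at a median excess of 0.04, so this list as a whole was not steady. Of 13 heat shock genes 2 were variable (15.4%) and 3 steady (23.1%). Txn1, thioredoxin, ranged from 61.8 over 221 to 404 at -2.58, and Prdx1, a peroxidase that thioredoxin recycles, from 895 over 3595 to 6341 at -1.35. Hspe1, the mitochondrial co-chaperonin, ranged from 79.5 over 257 to 606 at -2.07, and Hsp90ab1 from 6515 over 13937 to 22235 at -1.44. Hint1, a nucleotide hydrolase, ranged from 62.2 over 328 to 769 at -2.05. Sem1, a small proteasome subunit, ranged from 2.53 over 92.1 to 216 at -2.81, and 6 of 31 proteasome genes were steady (19.4%). Of 32 spliceosome genes 9 were steady (28.1%) and 1 was variable. Snrpg, a core protein of spliceosomal snRNPs, lay at -3.11, whereas Srsf2, a splicing regulator, was 7793 in mock cell 96 and 706 at the median and dropped from 1.73 to -0.07 without that cell. Above a mean of 1000, the lowest gene that met the filters was Gabarapl2, an autophagy protein, at -1.11, and -0.87 without the 3 cells. Slc25a3, Sptbn1, Cct7, Kars, Cd63 and Nsd1 of that range lay between -0.28 and 0.15.

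Steady genes had short transcripts. The longest annotated transcript had a median of 1739 bases for steady genes, 3659 for variable genes and 3425 for all. At an equal count, a short transcript stands for more molecules in a library that is read along the whole transcript, and the part of length in these calls was not tested. Read against genes of like mean count per kilobase, 621 genes were variable and 575 steady, of which 400 and 285 were shared with the calls above, and the steady genes then had a median length of 4695. On that scale 13 of 48 nuclear oxidative phosphorylation genes and 25 of 77 ribosomal proteins were steady, with medians of -0.32 and -0.54. Cox6c (-3.13), Snrpg (-2.29), Btf3 (-1.78), Tomm7 (-1.75) and Txn1 (-1.69) were steady on both scales, and Hint1 (-0.83), Atp5h (-0.74), Rpl36a (-0.71) and Rps29 (-0.71) were not. Sat1 (3.46), Krt17 (3.23), Plaur (2.43) and Lefty1 (2.98) were variable on both, although Lefty1 had reads shared with other genes.

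Pluripotency genes were close to the typical line. Of 16 measured core and general pluripotency genes none was variable and 2 were steady, at a median excess of 0.00. Sox2, the partner of Pou5f1, ranged from 0 over 53.5 to 309 at -1.48, and Utf1, a chromatin factor of ESCs, from 0 over 56.0 to 269 at -1.35. Of 14 naive genes 1 was variable: Prdm14, which represses DNA methylation and FGF signalling, had a median of 3.33, reached 1162 in mock cell 79 and had an excess of 1.09, or 0.36 without that cell. Klf2 was steady (-1.10), and Esrrb, Klf4 and Tfcp2l1 lay at -0.03, -0.21 and -0.05. Dppa3, which varies between ESCs grown in serum, was counted in 4 cells at up to 115. Pou5f1, Nanog, Zfp42 and Sall4 were nearly independent of each other, with rho from -0.15 for Pou5f1 with Sall4 to 0.29 for Pou5f1 with Nanog.

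Further lists are given beside the background shares of 10.5% and 11.1%. Of 25 glycolysis and hypoxia genes 4 were variable and 1 steady, of 16 cholesterol synthesis genes 2 were variable, and of 14 miRNA and Argonaute genes none was variable and 1 steady. Pfkm, Gpi1, Tpi1 and Aldoc of glycolysis lay between 1.03 and 1.62, and Gpi1, Tpi1 and Aldoc were highest in mock cell 57. Tnrc6c, a partner of Argonaute in silencing, was the steady one, at -1.44. Of 10 interferon and RNA sensing genes none was variable, and Ifitm2 was steady at -1.22. No heat shock gene stayed variable without mock cells 3, 35 and 96.

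A gene was called on-off where it had no count in at least 12 cells, at least 50 normalized counts in at least 12 others, and a value between in at most 6. Of 6120 genes that were on in at least 12 cells, 16 met the rule (0.261%), and 10 of these had no shared reads. Of these 10, Hsdl1, a steroid dehydrogenase-like protein of mitochondria, was on most often: off in 12 cells, low in 5 and on in 43, with a median of 725 where it was on. Gja1, the gap junction protein connexin 43, was off in 12, low in 6 and on in 42, at a median of 296. Lgals9, galectin 9, was off in 17 and on in 38 (median 321), and Rab31, a GTPase of endosomal transport, was off in 25 and on in 29 (median 266). Retsat, retinol saturase, was off in 36 and on in 20 (median 162). Rnf185, a ubiquitin ligase of the endoplasmic reticulum, was off in 40 and on in 14 (median 235), and Tmem129, another such ligase, off in 42 and on in 13 (median 217). Fam196a was off in 43 and on in 14.

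The off state was mostly the same in both runs of a cell. Over the 10 genes and the 23 cells with 2 runs, 86 of 230 combinations had no count in either run, 138 were counted in both and 6 in 1 run. Whether a count of 0 in both runs means that the library or the cell lacked the transcript was not tested. The genes did not switch together: the median rho over their 45 pairs was 0.06, and the highest was 0.40, between Lgals9 and Rab31. A cell had between 1 and 9 of the 10 genes on (median 4), and this number had a rho of 0.61 with the genes counted in the cell. Cells with Gm37736 on had a median of 8621 genes counted and those with it off 7348.5, while the medians were 7871 and 7206 for Gja1. Gm37736 and Gm38115 lie within Tcf7l1 and Tmem131 on the same strand, and Tmem129 and Fam196a overlap Tacc3 and Dock1 on the opposite strand, so their reads are uncertain, as strand was not stated. The mitochondrial mt-Nd3 and mt-Nd4l, Enc1, Gm29216 and B830012L14Rik were among the 6 with shared reads.

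**Figure D4:**
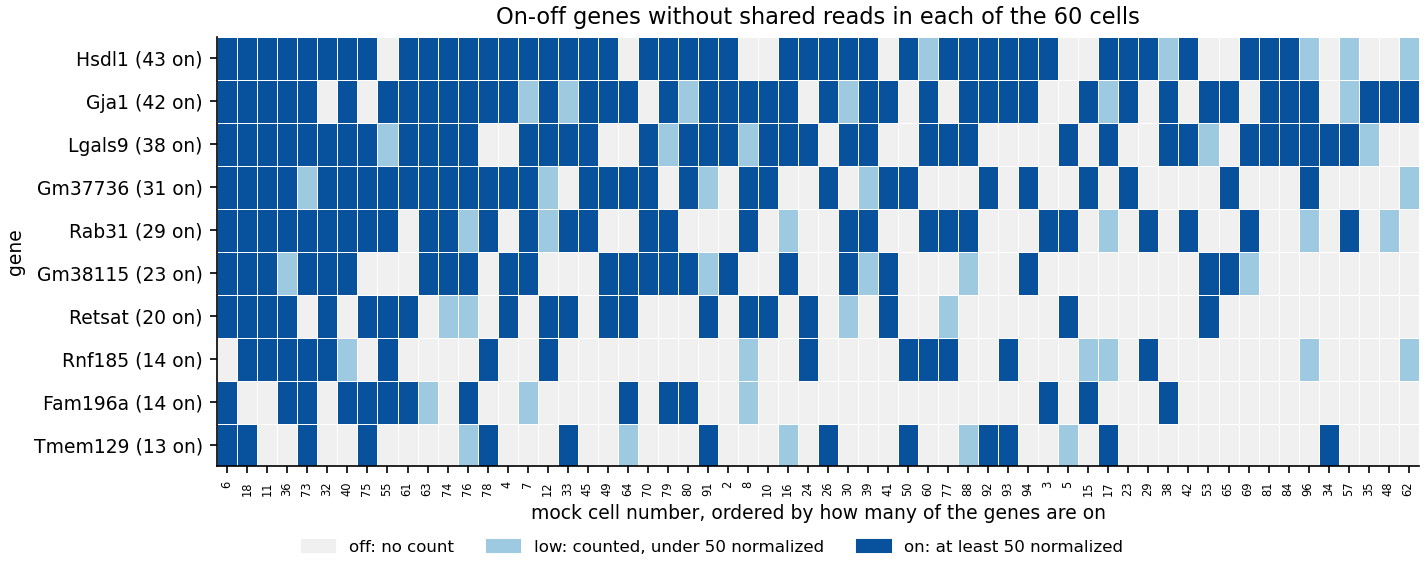
State of each of the 10 on-off genes without shared reads (rows, with the number of cells on) in the 60 mock cells (columns, ordered by the number of these genes on); grey is no count, light blue a count under 50 normalized counts and dark blue at least 50. Hsdl1 is on in 43 cells and Tmem129 in 13, and the genes are on in different cells.

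Pairs of genes were compared by Spearman's rho over the 60 cells, which share 1 culture and circuit and differ in depth and in genes counted. The 3378 genes without shared reads that were counted in at least 30 cells gave 5703753 pairs with a median rho of 0.01, with the outermost percentiles at -0.31 and 0.34. Of all pairs, 107 had a rho of at least 0.6 (0.00188%) and 21 a rho of at most -0.6 (0.000368%). None of the 107 joined neighbouring genes (within 1000000 bases). Without mock cells 3, 35 and 96, 81 of the 107 stayed at or above 0.6 and the lowest was 0.54. Given the number of genes counted per cell, 84 stayed and the lowest was 0.56.

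The closest pair was mitotic. Cdk1, the kinase of mitotic entry, and Aurkb, the kinase of the chromosomal passenger complex, had a rho of 0.78, and 0.77 without the 3 cells. Cdk1 ranged from 0 over 252 to 1491, and Aurkb from 0 over 10.5 to 486, with no count in 26 cells. Cdk1 and its subunit Cks2 had a rho of 0.70. Among the 500 genes of highest excess in this set, the larger of 2 modules held 7 genes with a median rho of 0.46: Bub1, Prc1, Shcbp1, Kif2c, Kif20b, Xpo1 and Knl1. Bub1 is a kinase of the spindle checkpoint, Prc1 bundles microtubules of the midzone, Kif2c depolymerizes microtubules at kinetochores, Kif20b acts in cytokinesis, Knl1 is a kinetochore scaffold and Xpo1 is the nuclear export receptor. Bub1 ranged from 0 over 48.6 to 1065, Prc1 from 0 over 255.2 to 2034, Kif2c from 0 over 25.9 to 2139 and Kif20b from 0 over 132 to 1735. Their summed level ran from 86.0 in mock cell 57 over 1265 to 6217 in mock cell 2. Without mock cell 3 alone, the rule found no module (0 against 2), although the 7 genes kept a median rho of 0.44. They had a median rho of 0.45 without mock cells 3, 35 and 96 and of 0.42 given the number of genes counted, with which their mean rank had a rho of 0.38, the same as with the mitochondrial share. The part of either in this result was not tested. Over the G2/M list the median rho was 0.38, and over other mitotic genes 0.32, against 0.15 for G1/S genes.

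Promoters of the leading module genes are printed because their genes moved together and cell cycle promoters often carry a CHR element or CCAAT boxes. The sequences are from RefSeq on GRCm38.p6, 250 bases before to 50 after the start, and 6 of the 7 genes had an entry. The 3 of highest rank whose window holds the annotated start of the gene are given 5′ to 3′ on the strand of the gene, with matches to TTTGAA (CHR) or CCAAT on either strand in capitals. They lie at chr2:127831810-127832109 (minus strand), chr7:80294201-80294500 (plus) and chr19:34922108-34922407 (plus). The Kif2c entry, at chr4:117178723-117179022, lies inside that gene (chr4:117159639-117182639, minus strand) and is not shown.
Bub1: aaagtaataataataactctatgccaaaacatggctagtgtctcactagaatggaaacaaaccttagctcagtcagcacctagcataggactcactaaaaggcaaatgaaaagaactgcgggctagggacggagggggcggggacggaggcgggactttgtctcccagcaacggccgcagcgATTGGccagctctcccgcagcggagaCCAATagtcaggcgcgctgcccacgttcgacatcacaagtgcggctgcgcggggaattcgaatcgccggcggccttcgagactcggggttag
Prc1: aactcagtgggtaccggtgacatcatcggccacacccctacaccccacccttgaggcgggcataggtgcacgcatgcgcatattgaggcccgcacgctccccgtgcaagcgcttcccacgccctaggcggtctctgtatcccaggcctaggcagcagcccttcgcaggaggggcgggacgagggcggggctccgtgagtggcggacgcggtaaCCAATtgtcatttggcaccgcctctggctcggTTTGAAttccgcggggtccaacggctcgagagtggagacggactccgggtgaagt
Kif20b: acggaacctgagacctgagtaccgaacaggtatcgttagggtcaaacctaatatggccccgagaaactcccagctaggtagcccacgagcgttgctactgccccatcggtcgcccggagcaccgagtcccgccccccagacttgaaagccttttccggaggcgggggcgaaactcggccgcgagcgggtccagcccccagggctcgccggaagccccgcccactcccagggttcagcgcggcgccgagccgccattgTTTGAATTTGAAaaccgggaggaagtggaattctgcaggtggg

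Of the 6 promoters, 4 held TTTGAA on either strand, as did 17.9% of the 32851 promoters in the table, and 3 held CCAAT, against 37.4%. Without the Kif2c window, which held TTTGAA and the TATAAA below, 3 of 5 held TTTGAA. Prc1 held both, Bub1 held 2 CCAAT matches and no TTTGAA, and Kif20b held 2 TTTGAA matches, printed as 1 run of capitals. The GC box GGGCGG was found in 5 of 6, against 35.7% of promoters, TATAAA in 1 (13.6%) and the serum response element in 1 (1.63%). The E2F letters TTTNNCGC (5.17%), the E-box CACGTG (7.15%) and the CRE TGACGTCA (1.79%) were in none of the 6. A match describes the sequence and does not show a bound site.

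A second group of pairs, described after the pairs were seen, included several genes of translation and mitochondria. Mif, macrophage migration inhibitory factor, had a rho of at least 0.6 with 11 genes, the small-subunit protein Rps15 with 10 and Rps4l with 9. Mif with Rps4l had a rho of 0.76, Mif with Ndufa7 of complex I 0.74, and Rps4l with Gpx1, a glutathione peroxidase, 0.73. Mif ranged from 235 over 802 to 3883 in mock cell 7, and Gpx1 from 3.27 in mock cell 3 over 1830 to 6487 in mock cell 7. Rps29 with Rps21 had a rho of 0.71, Timm13 with Tmsb10 0.70, and Elob with Uqcr10 0.69. Of the 107 pairs 14 joined genes named Rpl or Rps, and 69 included a gene whose longest transcript was under 1000 bases, which 4.56% of the genes in pairs were. The rho with the mitochondrial share was -0.58 for Mif, -0.60 for Rps4l, -0.57 for Rpl8 and -0.53 for Gpx1, but -0.18 for Rps29 and -0.40 for Rps21. The part of the mitochondrial share in these correlations was not tested. Over the 77 ribosomal proteins of the list, of which 10 had no shared reads, the median rho was 0.44, and 0.46 without the 3 cells. It was 0.07 over 1128 pairs of nuclear oxidative phosphorylation genes and 0.04 over elongation factors and other genes of that list, near the 0.01 of all genes.

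Opposed pairs linked mitochondrially encoded genes with nuclear genes of translation. mt-Atp8 of ATP synthase was opposed to Eif4ebp1, which restrains cap-dependent translation, at -0.67, to Eef2, the translocation factor, at -0.66 and to the deubiquitinase Otub1 at -0.63. mt-Nd6 and the nuclear complex I gene Ndufs8 had a rho of -0.63. Of the 21 opposed pairs 5 included a mitochondrially encoded gene. Mier3 with Rpl38 (-0.65), Prrc1 with Ift74 (-0.64) and Atg2b with Copz1 (-0.63) were also among the lowest.

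**Figure D5:**
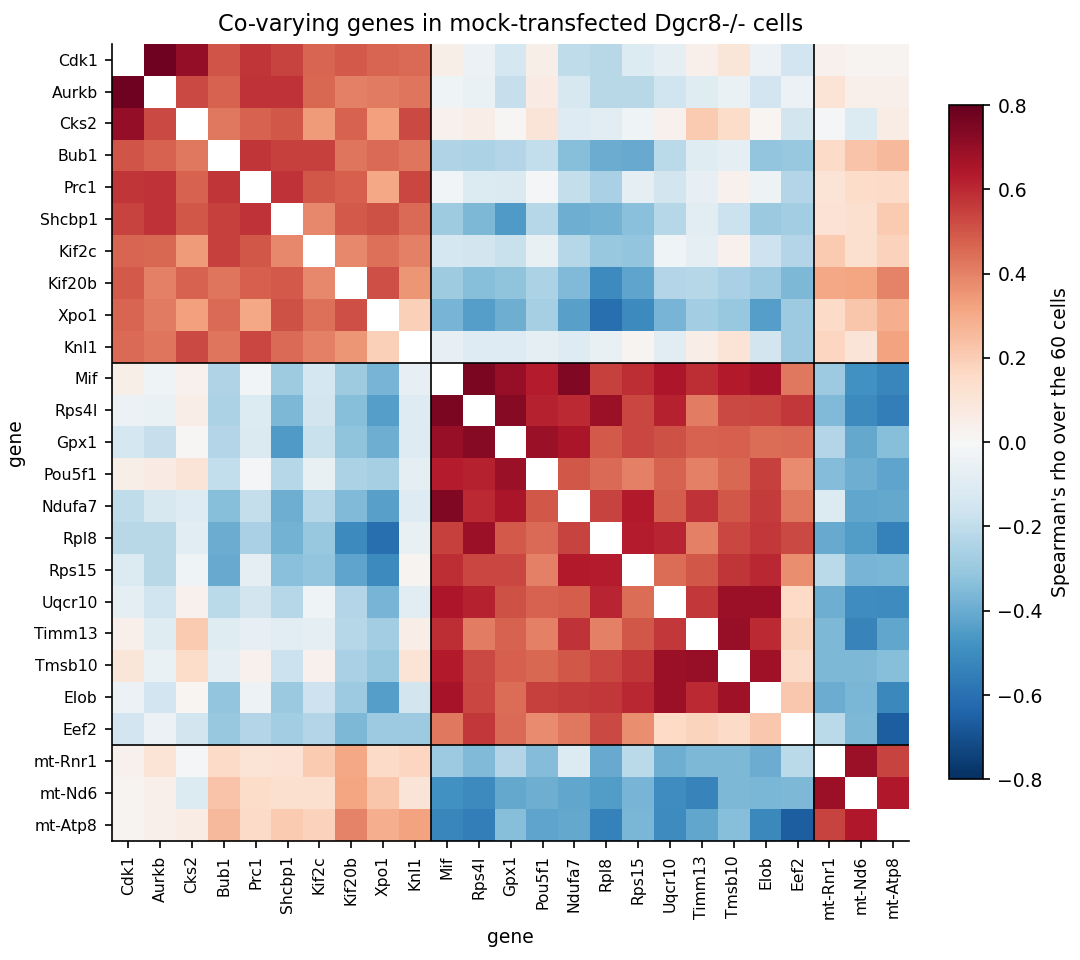
Spearman's rho over the 60 cells between 25 genes, red for positive and blue for negative values. Black lines separate mitotic genes and Xpo1, the genes from Mif to Eef2, and 3 mitochondrially encoded genes. The block from Mif to Eef2 holds several genes of translation and mitochondria, together with Pou5f1, Mif, Gpx1, Tmsb10 and Elob. The 9 mitotic genes without Xpo1 have a median rho of 0.48, the 11 genes from Mif to Elob, Pou5f1 included, 0.56, and the latter have a median of -0.40 with the mitochondrially encoded genes. Eef2 is left out of these medians, and its rho with the 11 genes runs from 0.15 (Tmsb10) to 0.57 (Rps4l). All 25 genes were drawn from called pairs or the mitotic module, so high medians within a block follow in part from that choice.

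Pou5f1 belonged to the second group. Its nearest genes were Gpx1 (rho 0.69), Mif (0.63), Rps4l (0.62), the exon junction factor Eif4a3 (0.59) and the splicing protein Snrpd2 (0.59), and the values without mock cells 3, 35 and 96 were 0.55 to 0.69. Pou5f1 itself had a rho of -0.50 with the mitochondrial share and -0.23 with the genes counted. The other markers had weaker neighbours. Among the nearest genes of Zfp42 were Fndc3a (0.44) and Triml2 (0.41). Nanog was nearest to Serpinb6c (0.46) and Helb (0.45), and Sall4 to Sf3a1 (0.40) and Ensa (0.39).

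The second module held 5 genes of metabolism and protein turnover with a median rho of 0.45, among them Dnpep, an aminopeptidase, Rnh1, the ribonuclease inhibitor, Renbp, a sugar epimerase, and Ass1, argininosuccinate synthase. Dnpep ranged from 0 over 221 to 3252 and Rnh1 from 0 over 390 to 2467, both highest in mock cell 57, and Renbp from 0 over 312 to 2437 in mock cell 3. Their mean rank had a rho of -0.55 with the mitochondrial share. The median rho of these 5 genes was 0.42 without mock cells 3, 35 and 96, but without these cells the 5 genes formed no module, nor did more than 1 of them fall in a module under any alternative that gave other modules, whereas 4 genes of the mitotic module (Prc1, Bub1, Knl1 and Shcbp1) stayed together.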

How the data were processed

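The deposited values were gene-level expected counts, 1 table per run, which the authors made with RSEM 1.2.19 (per the labels) on the Gencode M4 annotation; other columns of those tables were not used. For 23 cells the authors deposited a second run of the same library. Here both runs of such a cell were added up before rounding, giving totals of 514728 to 3564131 counts. Counts were divided by size factors of the median-of-ratios kind over the 1370 genes counted in all cells. Libraries had no molecular identifiers, so a value covers counting, capture and amplification together.

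CV, excess, on-off states, Spearman's rho and modules (average linkage over the 500 genes of highest excess, joined at a mean rho of 0.4, at least 5 genes) were computed with Python 3.11.15, numpy 2.4.6, scipy 1.17.1 and pandas 2.3.3, and TMM factors with edgeR 4.0.16 in R 4.3.3. The steps were tested on simulated data. A gene counted as having no shared reads where its expected count was within 0.01 of a whole number in at least 80% of runs with a count. Markers, list members and genes picked after their values were seen did not have to meet this rule. Among those that failed it were Lefty1, Plagl1, Meg3, Impact, Mdm2, Top2a, Rrm2, Sparc, Anxa2, Zfp42, Sall4 and Nanog. No test was run, because the 60 cells were 1 sample. Gene symbols were found for 41674 of 42493 gene IDs, and 3 of 914 list symbols matched none.

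Named genes were, in each range of means (50 to 200, 200 to 1000, above 1000), the 8 of highest and 8 of lowest excess among genes without shared reads, counted in at least 12 cells and with at most 25% of counts in 1 cell; up to 15 on-off genes; the 15 highest and 10 lowest pairs; leading module genes; and the extremes of each of 40 lists. The cells, lists and rules were chosen with earlier results of these data known. Some genes that met these rules are not reported here.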

Additional observations from a re-analysis of the deposited data

How the results depend on the processing

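Counts of calls changed with depth, thresholds, the measure used and single cells. With cells thinned to the lowest total, 209 genes were variable, 203 steady and 2 on-off, with 43 co-varying and 13 opposed pairs. Without the 10 shallowest cells there were 34 on-off genes, 189 co-varying and 74 opposed pairs and 1 module. A minimum mean of 20 gave 860 variable and 942 steady genes, a minimum of 100 gave 313 and 321, and no filter gave 2637 and 3478. The variance of log2 values gave 281 variable genes and turned the excess of Zwint to -0.19. With on defined at 20 normalized counts 2.0e+02 genes were on-off, at 100 there were 6, and with at most 3 low cells there were 4. Pearson's r of log2 values gave 435 co-varying pairs. Scaling by total counts gave 9 opposed pairs and 1 module, and TMM factors gave 8 and 1.

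The following were added after seeing the data. Without mock cell 3 no module was found (0), and the excess of Dstn was -0.37 and of Zwint -0.48. Without mock cells 3, 35 and 96 there was 1 module, and Dstn, Zwint and Atp6v0b were at -0.46, -0.48 and -0.011. Finding shared reads by stretches of 31 bases gave 324 co-varying gene pairs, 57 opposed gene pairs and 1 module. Of 453 values of the excess of named genes over all alternatives, 390 kept their size within the limits set, 57 moved and 6 changed sign; the cause of these changes was not tested. No paired analysis was possible because a single group was described.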
